A study of Mus musculus with 9 samples.

Results

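The 10 genes described here encode the core of the inflammasome and of pyroptosis: the sensors Nlrp3, Nlrp1b and Nlrc4, the NLRP3 partner Nek7, the ATP-gated channel P2rx7, the adaptor Pycard, the caspases Casp1, Casp4 and Casp8, and the pore-forming protein Gsdmd. They were chosen by gene symbol from the 51826 genes counted, and each symbol matched 1 gene. RNA-seq libraries of polyadenylated RNA were made from RAW 264.7, a macrophage line from a mouse tumour induced by a leukaemia virus, in 3 groups of 3 libraries that the labels call biological replicates. The cells carried no engineered allele, and all groups came from this 1 line. Vehicle cells received solvent alone. LPS cells received lipopolysaccharide, a bacterial cell wall component sensed by TLR4, at 300 ng/mL for 6 h. Calycosin plus LPS cells received calycosin, a plant isoflavone, at 100 µg/mL for 24 h and then LPS at the same concentration and for the same time. Calycosin without LPS was not among the groups, and the labels do not say whether the LPS cells received solvent during the pretreatment.

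An inflammasome is assembled when a sensor protein detects a microbial product or a disturbance of the cell and recruits pro-caspase-1, in most cases through the adaptor ASC, the product of Pycard. Active caspase-1 matures interleukin 1 beta and interleukin 18 and cuts gasdermin D, whose fragment opens pores in the plasma membrane and brings about the lytic death called pyroptosis. In macrophages the NLRP3 inflammasome works in 2 steps. A priming signal such as LPS raises Nlrp3 and Il1b transcription, and a later signal, such as extracellular ATP acting on P2RX7, triggers assembly with NEK7. Caspase-11, the product of mouse Casp4, binds LPS in the cytosol and cuts gasdermin D without a canonical inflammasome. RAW 264.7 cells are known to lack ASC. Assembly, caspase activity and cell death were not measured here.

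LPS changed most of these genes. After calycosin pretreatment 4 of the genes that LPS had raised were lower, while Nlrp3 and Casp4, those with the largest rises, showed no called difference from LPS alone. Of these 4 falls, only that of Casp1 kept its call under all 21 alternative settings, which are described at the end. The call was lost in 3 settings for Casp8, in 5 for Nlrp1b and in 8 for Gsdmd. The rise of Nlrp1b with LPS lost its call in 3 settings and changed direction in 4. The rise of Gsdmd lost its call in 4. Of the 10 genes, 9 had enough counts to be tested. With LPS against vehicle 6 were higher (Nlrp3, Nlrp1b, Casp1, Casp4, Casp8 and Gsdmd) and 1 was lower (P2rx7) at an adjusted p under 0.05 (edgeR, quasi-likelihood F test). Among all 14458 genes tested, 27.3% were called higher and 28.9% lower in that comparison. With calycosin plus LPS against LPS, 4 were lower (Casp1, Casp8, Gsdmd and Nlrp1b), where 12.9% of all genes tested were called lower. No member was called higher in that comparison, where 16.1% of all genes were. The number higher was also 0 at an unadjusted p below 0.05, with DESeq2 and with limma. With calycosin plus LPS against vehicle, 4 were higher (Nlrp3, Casp1, Casp4 and Casp8) and 1 was lower (P2rx7), beside 25.4% and 23.6% of all genes tested. The median log2 fold change of the 9 genes was 1.04 for LPS against vehicle, -0.37 for calycosin plus LPS against LPS and 0.45 for calycosin plus LPS against vehicle, and the medians of all genes tested were -0.067, 0.025 and -0.0045. Each pair of these 3 comparisons shares 1 group of libraries, so they are not independent of each other.

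**Figure D1:**
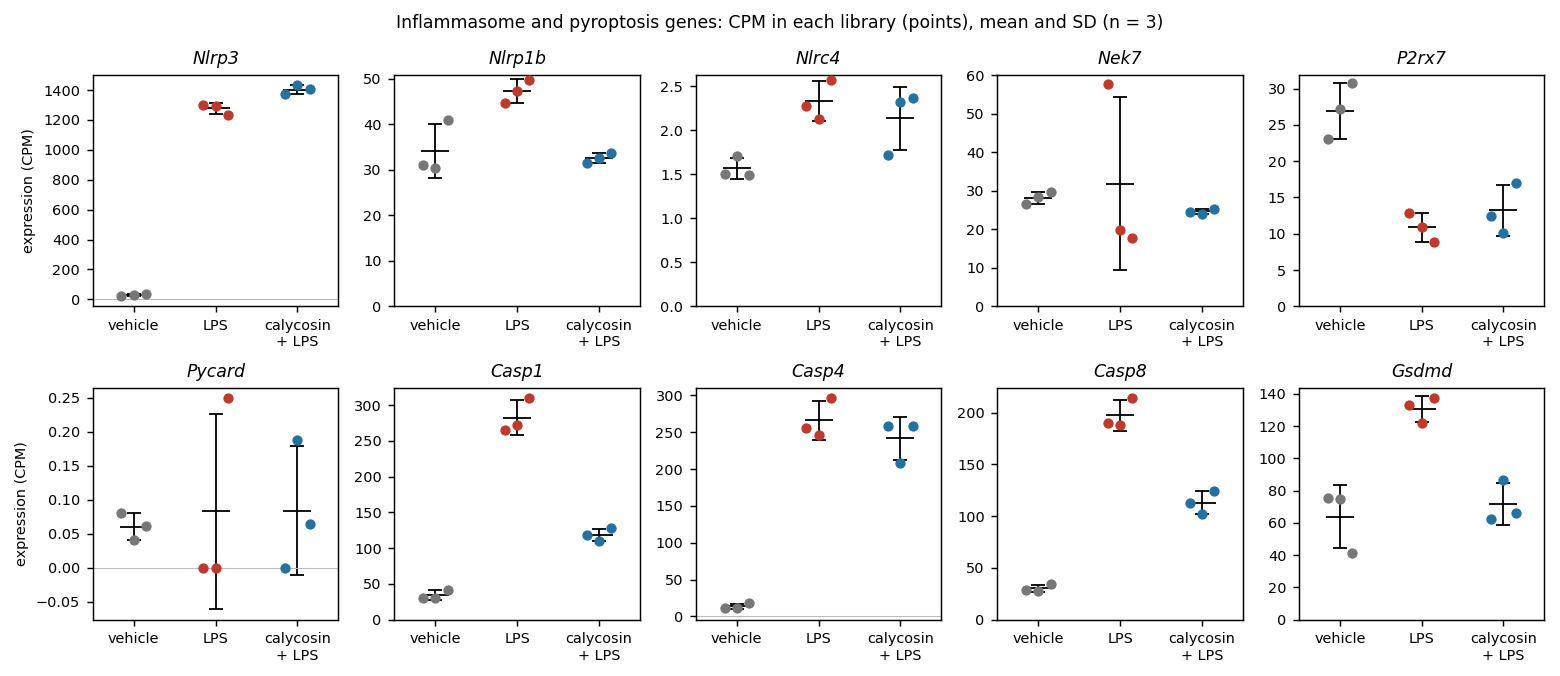
Expression of the 10 genes in CPM on linear axes that differ between panels, with a point per library and the mean and SD of 3 libraries in black. Nlrp3 and Casp4 stand at similar heights in both LPS-treated groups, Casp1 and Casp8 are intermediate with calycosin, and P2rx7 is highest in vehicle cells.

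Levels below are in CPM, deposited counts divided by the TMM-scaled library size, which suits comparison of 1 gene between libraries. Depth was 27784737 to 38524105 counts per library, and the SE of a log2 fold change is given in parentheses. Libraries differed in the share of counts from mitochondrially encoded genes, which was 3.79%, 3.68% and 21.9% in the vehicle libraries, 14.1%, 14.7% and 13.0% in the LPS libraries and 17.2%, 7.45% and 19.4% in the calycosin plus LPS libraries. Replicate 3 of vehicle and replicate 2 of calycosin plus LPS thus stand apart from the other libraries of their groups. Among the 6 libraries with a share above 10%, a split with 1 vehicle library that is assumed to vary like the others, 5 members were higher and 1 lower with LPS against vehicle (Nlrp1b not called), where 20.8% of all genes tested were higher and 20.3% lower. In the same libraries 4 were lower and none higher with calycosin plus LPS against LPS (15.3% and 17.5% of all genes), and 5 were higher and 1 lower against vehicle (Gsdmd added; 17.2% and 13.3% of all genes). Among the 3 libraries below 10%, none of which is an LPS library, calycosin plus LPS replicate 2 against vehicle replicates 1 and 2 gave 5 higher and 1 lower (Gsdmd added), beside 29.9% and 27.7% of all genes. The lone library is again assumed to vary like the others. Scaling bears on the calls. TMM factors were 1.42, 1.42 and 1.05 in vehicle, 0.791, 0.786 and 0.813 in LPS and 0.942, 1.11 and 0.896 in calycosin plus LPS libraries. All LPS libraries had lower factors than the others, so scaling and treatment are confounded. With library totals in place of the factors, the median of all genes moved to -0.77 for LPS against vehicle and 0.33 for calycosin plus LPS against LPS. Without the factors, 1879 genes were called higher and 7744 lower with LPS against vehicle, beside 3954 and 4180 with them. For calycosin plus LPS against LPS the numbers were 3418 higher and 710 lower without the factors, beside 2333 and 1871. Of 10 macrophage markers, 8 had enough counts to be tested. The summed level of all 10 was 4594 to 5000 CPM in vehicle, 4640 to 4831 in LPS and 3381 to 3963 in calycosin plus LPS libraries. Adgre1 was low, with means of 7.05, 8.52 and 12.7 CPM in vehicle, LPS and calycosin plus LPS. The sums hide opposite moves. With LPS against vehicle 4 of the 8 rose: Mrc1 (from a scarce 0.203 to 1.58 CPM), Spi1, Cd14 (513 to 1248 CPM) and Fcgr1 (50.8 to 282 CPM). The 2 that fell were Csf1r (477 to 127 CPM) and Lyz2 (2560 to 1193 CPM). With calycosin plus LPS against LPS 3 of the 8 were lower and 0 higher, beside 12.9% and 16.1% of all genes tested. Mertk and Cd163 were the markers not tested, with at most 4 and 2 counts in any library. Sums over markers of T cells, B cells, neutrophils, fibroblasts and epithelial cells reached at most 1.37 CPM in any library, and Cd8a, Ms4a1, Ly6g, Dcn, Epcam and Krt18 had no count. Endothelial marker sums were 0.391 to 0.852 CPM in vehicle, 4.15 to 6.27 in LPS and 0.845 to 1.17 in calycosin plus LPS libraries, and dendritic cell marker sums were 0.456 to 0.678, 1.27 to 2.46 and 0.868 to 1.59 CPM, with Flt3 at 0. The part of these marker levels in the results was not tested.

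Nlrp3 (ENSMUSG00000032691, chr11:59541568-59566956, plus strand) is the sensor that LPS priming is best known to raise. It stood at 23.2, 29.3 and 32.5 CPM in the vehicle libraries, at 1301, 1293 and 1236 CPM in the LPS libraries, and at 1371, 1432 and 1406 CPM in the calycosin plus LPS libraries. Both treated groups lie far above vehicle, and all 3 calycosin plus LPS libraries lie above the LPS libraries by a narrow margin. LPS raised Nlrp3 45.1-fold over vehicle (log2 5.50, SE 0.17, adjusted p = 9.87e-09), and it was 49.6-fold above vehicle with calycosin plus LPS (adjusted p = 1.16e-08). The difference between the LPS-treated groups did not pass the test, at log2 0.14 (SE 0.14, adjusted p = 0.502). It was 0.44 with library totals in place of TMM (adjusted p = 0.0500433, just above the threshold), where the median of all genes was 0.33, and 0.46 with limma on log2(TPM + 1) (adjusted p = 0.205), where that median was 0.27.

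Nlrp1b (ENSMUSG00000070390, chr11:71153102-71230733, minus strand), a sensor that anthrax lethal toxin activates in susceptible mouse strains, moved far less. Its levels were 30.9, 30.4 and 40.9 CPM in vehicle, 44.7, 47.4 and 49.8 CPM in LPS, and 31.4, 32.6 and 33.7 CPM in calycosin plus LPS libraries. The LPS libraries are above all others, and the vehicle and calycosin plus LPS libraries overlap. Nlrp1b rose 1.39-fold with LPS (log2 0.47, SE 0.13, adjusted p = 0.0131) and was 1.45-fold lower in the calycosin plus LPS group than with LPS (log2 -0.54, SE 0.13, adjusted p = 0.0151). The difference from vehicle with calycosin plus LPS was log2 -0.064 (adjusted p = 0.712). The rise with LPS lost its call without vehicle replicate 1 (adjusted p = 0.0690) or replicate 2 (adjusted p = 0.0692). It turned to log2 -0.20 (adjusted p = 0.213) with library totals in place of TMM, and to -0.29 (adjusted p = 0.266) with limma on log2(TPM + 1). Among libraries with a mitochondrial share above 10% it was 0.18 (adjusted p = 0.300). The fall lost its call without calycosin plus LPS replicate 1 (adjusted p = 0.0608) and with library totals (adjusted p = 0.222). It was not called by limma on log2(TPM + 1) either, at -0.23 (adjusted p = 0.531), where the median of all genes was 0.27.

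Nlrp1b has close relatives beside which its reads could be split. Nlrp1a had 22 counts, all in calycosin plus LPS replicate 2, and none in the other 8 libraries, while Nlrp1c-ps had no count in any. How multiply mapping reads were counted is not given in the sources used here, so the Nlrp1b values are uncertain to that extent.

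Nlrc4 (ENSMUSG00000039193, chr17:74425438-74459142, minus strand), which NAIP proteins engage on sensing flagellin and type III secretion proteins, was scarce. Its counts ran from 49 to 99 per library, or 1.51, 1.71 and 1.49 CPM in vehicle, 2.28, 2.13 and 2.58 CPM in LPS and 1.72, 2.32 and 2.36 CPM in calycosin plus LPS libraries. Vehicle libraries are below all treated libraries without overlap, but neither contrast with vehicle passed the test (adjusted p = 0.0505 for LPS and 0.116 for calycosin plus LPS). DESeq2 placed the LPS difference at log2 0.59 and within the threshold (adjusted p = 0.0327), and with library totals it was -0.14 (adjusted p = 0.674).

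Nek7 (ENSMUSG00000026393, chr1:138482875-138620141, minus strand), the kinase that binds NLRP3 during assembly, was not called in any comparison, and 1 library decides its mean. It stood at 26.6, 28.5 and 29.6 CPM in vehicle, 57.7, 19.9 and 17.9 CPM in LPS and 24.6, 23.9 and 25.4 CPM in calycosin plus LPS libraries. LPS replicate 1, with 1268 counts against 485 and 430 in its group, is above every other library, and the other two LPS libraries are below all vehicle and calycosin plus LPS libraries. With all libraries the LPS difference from vehicle was log2 0.17 (SE 0.37, adjusted p = 0.712). Without LPS replicate 1 it was -0.57 (SE 0.13, adjusted p = 0.00626), and calycosin plus LPS against LPS was 0.39 (SE 0.13, adjusted p = 0.0653) in place of -0.37 (adjusted p = 0.497). That library's mitochondrial share of 14.1% lies between those of the other LPS libraries, and the antisense gene Gm28501 that overlaps Nek7 had no count in any library. LPS replicate 1 also stands apart in other genes, such as Naip6 (59.1 CPM against 14.2 and 21.1 in its group) and Map3k7 (73.8 against 40.6 and 40.8). The cause of its Nek7 level was not tested.

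P2rx7 (ENSMUSG00000029468, chr5:122643911-122691432, plus strand), the channel through which extracellular ATP lets potassium leave the cell, was the member that LPS lowered. Its levels were 23.0, 27.2 and 30.7 CPM in vehicle, 12.8, 11.0 and 8.85 CPM in LPS and 12.5, 10.2 and 17.0 CPM in calycosin plus LPS libraries. The vehicle libraries are above all treated libraries, and the treated groups overlap. P2rx7 was 2.48-fold lower with LPS than with vehicle (log2 -1.31, SE 0.22, adjusted p = 6.58e-04) and 2.04-fold lower with calycosin plus LPS (log2 -1.03, SE 0.21, adjusted p = 0.00333). Calycosin plus LPS against LPS gave log2 0.28 (SE 0.22, adjusted p = 0.367). The falls held under the 21 and 22 alternative settings run, at log2 -2.02 to -1.17 and -1.72 to -0.80. In bulk RNA, fewer cells expressing a gene and less RNA per cell cannot be told apart.

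Pycard (ENSMUSG00000030793, chr7:127989708-127993867, minus strand), the ASC adaptor, was at the limit of detection in all 3 groups. Its counts were 4, 2 and 2 in vehicle, 0, 0 and 6 in LPS, and 0, 8 and 2 in calycosin plus LPS libraries. These 24 counts correspond to 0.0781 CPM over all libraries, with an exact 95% Poisson interval of 0.0501 to 0.116 that covers counting error only. The libraries at 0 leave room for a level as high as 3 counts, equal to 0.0940 to 0.137 CPM there. Pycard was therefore not tested, and no change was detectable at this depth. The few counts cannot be assigned with certainty, since exons of Gm45205 overlap the gene and strand use is not given in the sources used here.

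**Figure D2:**
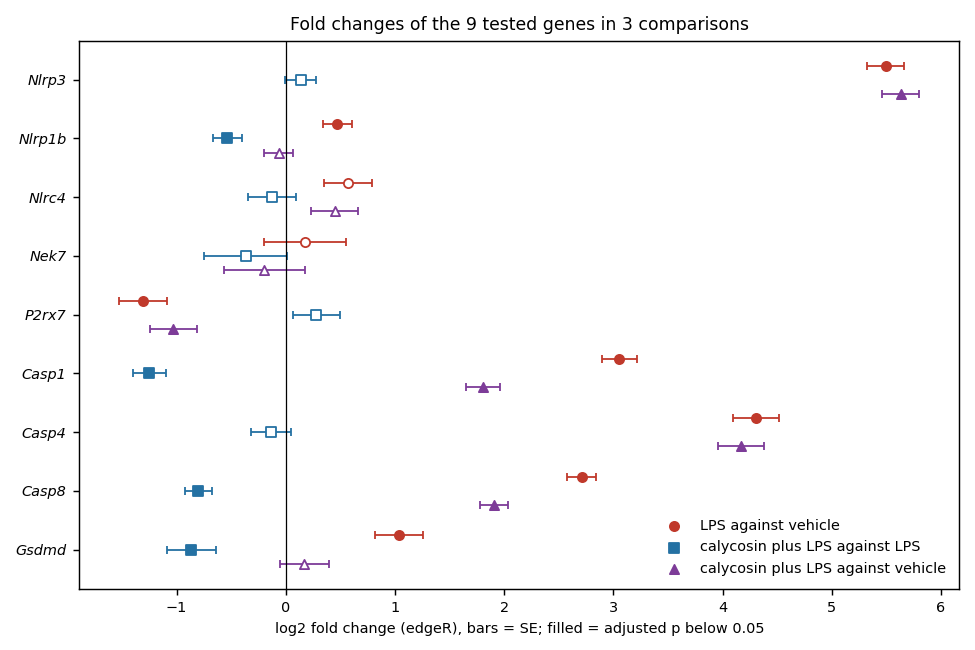
Log2 fold changes of the 9 tested genes (x axis) with SE bars, in red circles for LPS against vehicle, blue squares for calycosin plus LPS against LPS and purple triangles for calycosin plus LPS against vehicle. Filled markers passed an adjusted p of 0.05 in edgeR: Nlrp3 and Casp4 have open blue squares near 0, while Casp1, Casp8, Gsdmd and Nlrp1b have filled ones below 0.

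Casp1 (ENSMUSG00000025888, chr9:5298517-5307265, plus strand) and Casp4 (ENSMUSG00000033538, chr9:5308828-5336783, plus strand) lie head to tail, 1562 bases apart. Both encode inflammatory caspases that cut gasdermin D, and they are paralogs. The windows from 250 bases before to 50 bases after the RefSeq transcription start (GRCm38.p6, plus strand, 5′ to 3′) are printed for both neighbours, because Casp1 was lower with calycosin plus LPS than after LPS alone and Casp4 was not called, and for Nlrp3, because it had the largest rise of the 10 genes. Capitals mark a match to any of 4 motifs searched on both strands: an NF-kappaB site, the interferon-stimulated response element, TTCNNNGAA (GAS, the gamma-interferon-activated sequence) and TGANTCA (AP-1).
Casp4, chr9:5308599-5308898: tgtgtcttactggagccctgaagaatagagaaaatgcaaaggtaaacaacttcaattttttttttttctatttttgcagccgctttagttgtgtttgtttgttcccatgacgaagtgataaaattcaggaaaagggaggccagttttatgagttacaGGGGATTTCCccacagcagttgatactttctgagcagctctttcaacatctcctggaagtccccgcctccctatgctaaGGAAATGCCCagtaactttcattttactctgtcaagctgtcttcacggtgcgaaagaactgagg
Casp1, chr9:5298267-5298566: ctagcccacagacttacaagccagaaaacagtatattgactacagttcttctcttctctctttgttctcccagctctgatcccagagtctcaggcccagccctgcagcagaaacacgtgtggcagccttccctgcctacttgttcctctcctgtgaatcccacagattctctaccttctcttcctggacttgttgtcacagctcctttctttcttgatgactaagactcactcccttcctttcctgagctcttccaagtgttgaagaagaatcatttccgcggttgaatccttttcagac
Nlrp3, chr11:59541319-59541618: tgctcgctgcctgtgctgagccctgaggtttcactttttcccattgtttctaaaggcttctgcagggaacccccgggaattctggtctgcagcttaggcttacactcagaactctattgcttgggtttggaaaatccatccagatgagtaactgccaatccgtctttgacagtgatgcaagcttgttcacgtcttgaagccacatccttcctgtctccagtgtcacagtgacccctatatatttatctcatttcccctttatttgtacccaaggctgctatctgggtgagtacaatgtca

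The Casp4 window holds 2 NF-kappaB matches. GGGGATTTCC lies 93 to 84 bases before the start, and GGAAATGCCC, the match on the opposite strand, lies 14 to 5 bases before it. A match to this motif was found in 1.63% of 32851 promoter windows of the same length, and 2 or more in 0.0304% (10 windows, of which 2 are overlapping Casp4 windows with the same sites). The printed Casp1 and Nlrp3 windows hold no match to the 4 motifs. Windows were given for 9 of the 10 genes, 13 in all, and 3 of them hold a match: both Casp4 windows and 1 of P2rx7, with an AP-1 match at 249 to 243 bases before the start. The interferon-response, GAS and AP-1 motifs were found in 3.44%, 8.30% and 7.81% of all windows. A match describes letters in a window and is not evidence of binding, which was not measured.

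Casp1 was at 30.4, 29.6 and 42.1 CPM in vehicle, 265, 272 and 310.1 CPM in LPS and 118, 110.2 and 128 CPM in calycosin plus LPS libraries. The 3 groups are fully separated, with calycosin plus LPS between the others. Casp1 rose 8.30-fold with LPS (log2 3.05, SE 0.16, adjusted p = 2.81e-07), and was 2.38-fold lower in the calycosin plus LPS group than with LPS (log2 -1.25, SE 0.15, adjusted p = 4.63e-04). It remained 3.49-fold above vehicle (log2 1.80, SE 0.15, adjusted p = 1.21e-05). The fall against LPS held under all 21 alternative settings, at log2 -1.30 to -0.91.

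Casp4 was at 11.6, 11.1 and 17.7 CPM in vehicle, 256, 247 and 296 CPM in LPS and 259, 208 and 258 CPM in calycosin plus LPS libraries. Both treated groups are far above vehicle and overlap with each other. Casp4 rose 19.8-fold with LPS (log2 4.31, SE 0.21, adjusted p = 1.60e-07) and was 18.0-fold above vehicle with calycosin plus LPS (adjusted p = 2.81e-07). Calycosin plus LPS against LPS was log2 -0.14 (SE 0.18, adjusted p = 0.600), and 0.15 (adjusted p = 0.419) with library totals in place of TMM.

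The neighbours were also compared as a ratio within each library, which no scaling of libraries can alter. The ratio of Casp4 to Casp1, in TPM (a level scaled for transcript length and depth, as the authors deposited it), was 0.459, 0.426 and 0.501 in vehicle, 1.08, 1.01 and 1.17 in LPS and 2.64, 2.06 and 2.39 in calycosin plus LPS libraries. The groups do not overlap, and by TPM Casp4 passed from below Casp1 in vehicle to above it in both treated groups. By raw counts, which are not corrected for length, Casp4 was below Casp1 in all 3 LPS libraries (5616 against 5821, 6022 against 6631 and 7125 against 7464) and above it in the calycosin plus LPS libraries. Which of the pair is higher with LPS thus rests on the length scaling of TPM. Mean ratios were 0.462 ± 0.0375, 1.08 ± 0.0831 and 2.36 ± 0.291 (SD, n = 3). The ratio was 2.35-fold higher with LPS than with vehicle and 2.17-fold higher with calycosin plus LPS than with LPS. An exact two-sided permutation test gave p = 0.1 for each of the 3 pairs of groups, the smallest value that 3 libraries against 3 allow. This ratio was chosen after the values of both genes had been seen.

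**Figure D3:**
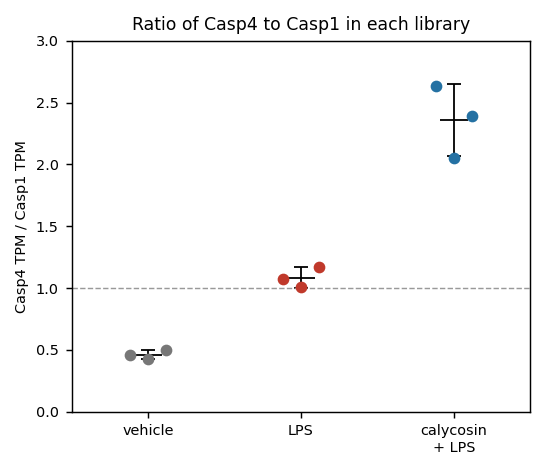
Ratio of Casp4 TPM to Casp1 TPM in each library (points) with mean and SD of 3 libraries in black, on a linear axis from 0, and a dashed line at equal levels. Vehicle libraries lie at 0.426 to 0.501, LPS libraries at 1.01 to 1.17 and calycosin plus LPS libraries at 2.06 to 2.64.

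Casp8 (ENSMUSG00000026029, chr1:58795374-58847503, plus strand), the initiator caspase of death receptors that also cuts gasdermin D and can act within inflammasomes, followed the order seen for Casp1. It was at 28.5, 28.0 and 34.0 CPM in vehicle, 189.7, 188 and 215 CPM in LPS and 113, 102 and 125 CPM in calycosin plus LPS libraries. No library of 1 group lies within the range of another. Casp8 rose 6.54-fold with LPS (log2 2.71, SE 0.13, adjusted p = 1.49e-07), was 1.74-fold lower in the calycosin plus LPS group than with LPS (log2 -0.80, SE 0.12, adjusted p = 0.00147) and stood 3.75-fold above vehicle (adjusted p = 2.16e-06). The fall was not called by limma on log2(TPM + 1), at -0.37 (adjusted p = 0.238), where the median of all genes was 0.27.

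Gsdmd (ENSMUSG00000022575, chr15:75862327-75867408, plus strand), the pore-forming executor, had the highest mean TPM of the 10 genes in vehicle cells, although in vehicle replicate 3 its 36.6 TPM was below the 44.4 TPM of Casp1. Its levels were 75.2, 74.7 and 41.2 CPM in vehicle, 133, 122 and 138 CPM in LPS and 62.7, 86.4 and 66.0 CPM in calycosin plus LPS libraries. The LPS libraries are above all others, and the vehicle and calycosin plus LPS libraries overlap. Gsdmd rose 2.05-fold with LPS (log2 1.04, SE 0.22, adjusted p = 0.00315) and was 1.82-fold lower in the calycosin plus LPS group than with LPS (log2 -0.87, SE 0.22, adjusted p = 0.0172). Against vehicle, calycosin plus LPS gave log2 0.17 (SE 0.22, adjusted p = 0.550).

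The 2 libraries that stand apart in mitochondrial share are also the extremes of Gsdmd within their groups: vehicle replicate 3 (21.9%) has the lowest level of the vehicle libraries and calycosin plus LPS replicate 2 (7.45%) the highest of its group. This is not particular to Gsdmd. Only 1 of 3 libraries can be in the middle, so an extreme place is common for any library. The counts that follow have no share of all genes beside them, which was not computed. Vehicle replicate 3 is the highest or lowest vehicle library for 9 of the 10 genes (highest for 7, lowest for Nlrc4 and Gsdmd). Calycosin plus LPS replicate 2 is an extreme of its group for 8, being highest for Nlrp3, Pycard and Gsdmd and lowest for Nek7, P2rx7, Casp1, Casp4 and Casp8. Among the 6 libraries with a share above 10%, which include 1 vehicle library, LPS against vehicle was log2 1.64 (adjusted p = 7.86e-05), calycosin plus LPS against LPS -1.003 (adjusted p = 7.26e-04) and calycosin plus LPS against vehicle 0.64 (adjusted p = 0.00938). Among the 3 libraries below 10%, which include no LPS library, calycosin plus LPS against vehicle was 0.21 (adjusted p = 0.0295). With both outlying libraries left out, the last difference turned to -0.25 (adjusted p = 0.0338). The rise with LPS was 0.75 (adjusted p = 0.00120) without vehicle replicate 3, and 0.29 (adjusted p = 0.443) with library totals in place of TMM. It was 0.31 (adjusted p = 0.544) with limma on log2(TPM + 1). The fall against LPS lost its call without LPS replicate 1, LPS replicate 3, calycosin plus LPS replicate 1 or calycosin plus LPS replicate 3 (adjusted p = 0.0514 to 0.0695) and with library totals (adjusted p = 0.228). It was not called by limma on log2(TPM + 1) either, at -0.54 (adjusted p = 0.440), where the median of all genes was 0.27.

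**Figure D4:**
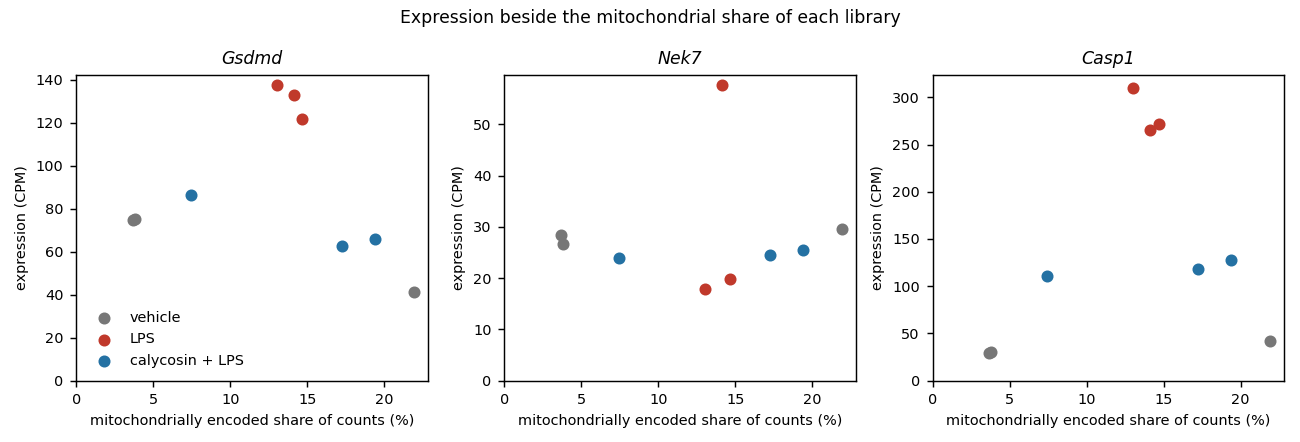
CPM of Gsdmd, Nek7 and Casp1 (y axes, from 0) beside the mitochondrially encoded share of counts in percent (x axes), with a point per library in grey for vehicle, red for LPS and blue for calycosin plus LPS. Gsdmd is lower in the vehicle library at 21.9% than in those at 3.79% and 3.68%, 1 LPS library stands alone in Nek7, and the 3 groups do not overlap in Casp1.

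Levels of different genes were compared in TPM, since CPM is not corrected for transcript length. In vehicle cells the order of mean TPM was Gsdmd 88.4, Casp1 51.0, Casp8 31.9, Casp4 23.4, P2rx7 19.3, Nlrp1b 19.0, Nlrp3 16.6, Nek7 14.0, Nlrc4 0.948 and Pycard 0.0349. Library ranges overlapped between Gsdmd and Casp1 and between each neighbouring pair from Casp4 down to Nek7. In LPS cells Nlrp3 led with 428 TPM, followed by Casp4 with 272, Casp1 with 249.9, Casp8 with 135 and Gsdmd with 97.4, and the ranges of Casp4 and Casp1 overlapped. In calycosin plus LPS cells the order was Nlrp3 601, Casp4 309.6, Casp1 132, Casp8 104 and Gsdmd 69.7, with the ranges of Casp8 and Gsdmd overlapping. Nlrp3 held rank 7054 of 51799 genes by mean TPM in vehicle cells, rank 236 in LPS cells and rank 136 in calycosin plus LPS cells. TPM carries no TMM scaling, so these levels and ranks are no test of change between groups. For Nlrp3, calycosin plus LPS against LPS was log2 0.14 and not called in edgeR (adjusted p = 0.502).

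The make-up of the pooled mRNA of the 10 genes changed accordingly. Nlrp3 made up 5.43% to 7.16% of their summed TPM in vehicle, 32.3% to 37.5% in LPS and 46.3% to 51.3% in calycosin plus LPS libraries, and these ranges do not overlap. Gsdmd made up 19.9% to 37.8% in vehicle, 7.84% to 8.31% in LPS and 4.70% to 6.87% in calycosin plus LPS libraries. Within the pool the share of Gsdmd was thus lowest, and that of Nlrp3 highest, in the calycosin plus LPS libraries, as a description of TPM with no test.

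**Figure D5:**
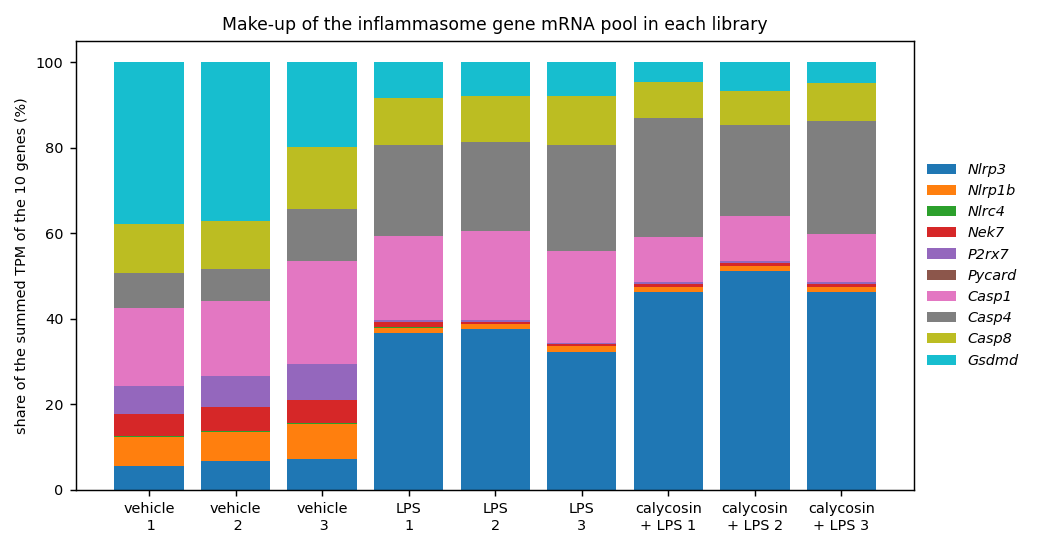
Share of each gene in the summed TPM of the 10 genes, in percent, as a stacked bar per library. Gsdmd and Casp1 take the most in vehicle libraries, and the Nlrp3 segment grows to 32.3% to 37.5% in LPS and 46.3% to 51.3% in calycosin plus LPS libraries.

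The genes most like 5 of the members across the 9 libraries were found by Pearson's r of log2 CPM among 8132 genes. The 9 points share their 3 groups, so that r mostly reflects the group means. Nlrp3 was followed most closely by Irgm2 (r = 0.9993; 7.69, 462 and 497 CPM in vehicle, LPS and calycosin plus LPS), Trim34b and Parp14. Casp4 was followed by Eif2ak2 (r = 0.9993; 44.2, 539 and 479 CPM), Xaf1 and Slfn8. Casp1 was followed by Nol10 (r = 0.9983, with 38.8, 145 and 82.6 CPM), Stambpl1 and Lyn. Gsdmd was nearest to Fam129b (r = 0.9917), Ccdc88b and Lrrc59, and P2rx7 to Kif14 (r = 0.9749), Angptl2 and C2cd2l.

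Other genes of the pathway were read from the same fit, in lists that share none of the 10 members. Their counts are to be read against the shares of all genes tested, which were 27.3% higher and 28.9% lower with LPS against vehicle and 16.1% higher and 12.9% lower with calycosin plus LPS against LPS. Several counts lie near those shares, among them the 3 of 24 activators that were higher and the 2 of 12 inhibitors that were lower with calycosin plus LPS against LPS. Of 16 other sensors and related receptors, 11 were tested, and with LPS against vehicle 8 rose and 3 fell (median log2 1.48). Nod2, a receptor for muramyl dipeptide, rose from 7.82 to 137 CPM with LPS and was at 61.1 CPM with calycosin plus LPS (2.24-fold lower than LPS, adjusted p = 2.42e-04). Nod1 went from 0.894 to 15.7 and 9.56 CPM, and was the other sensor that was lower (adjusted p = 0.0252). Nlrc5 rose from 55.3 to 404 CPM and the DNA sensor Aim2 from 38.7 to 203 CPM, and with calycosin plus LPS they were at 331 and 139 CPM (adjusted p = 0.106 and 0.128 against LPS). The sensor that was higher with calycosin plus LPS than with LPS was Nlrp10, at 9.36, 4.08 and 11.0 CPM in vehicle, LPS and calycosin plus LPS (2.69-fold, adjusted p = 2.68e-04), named after its values were seen.

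Among 7 substrates and outputs, 6 rose with LPS and 3 were lower in the calycosin plus LPS group than with LPS. These 3 were cytokine genes. Il1b had no count in vehicle libraries, stood at 35.2 ± 3.43 CPM with LPS and at 0.334 ± 0.137 CPM with calycosin plus LPS (SD, n = 3), 101-fold lower (adjusted p = 2.62e-05). Il1a was 38.8-fold lower (178 to 4.60 CPM, adjusted p = 2.65e-05), and Il1rn, which encodes the receptor antagonist, went from 823 to 141 CPM (adjusted p = 0.00325). Il18, the other caspase-1 substrate, rose from 4.45 to 102 CPM with LPS and was at 71.4 CPM with calycosin plus LPS, a difference that did not pass the test (adjusted p = 0.0556). Calycosin plus LPS differed from LPS by 101-fold in Il1b and by log2 0.14, not called, in Nlrp3, both of which LPS raised.

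Of 15 other gasdermin, caspase and necroptosis genes, 12 were tested, with 6 higher and 2 lower with LPS against vehicle, and 1 higher and 3 lower with calycosin plus LPS against LPS. Mlkl, the executor of necroptosis, rose 18.2-fold (24.1 to 439.6 CPM) and was at 205 CPM with calycosin plus LPS (adjusted p = 0.00299 against LPS). Ripk3, the kinase that activates MLKL, named after its values were seen, was at 19.9, 33.5 and 18.2 CPM in vehicle, LPS and calycosin plus LPS (adjusted p = 0.0137 for calycosin plus LPS against LPS). Zbp1, a nucleic acid sensor that engages RIPK3, went from 0.325 to 229 CPM with LPS and was at 194 CPM with calycosin plus LPS (adjusted p = 0.172). Cflar, an inhibitor of caspase-8, was at 645 CPM with LPS and 539 CPM with calycosin plus LPS (adjusted p = 0.107). Casp6, the gene that was higher, was at 9.91, 13.4 and 18.4 CPM (adjusted p = 0.0448), named likewise.

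Among 25 activators and cofactors of NLRP3, 24 were tested, 13 rose and 5 fell with LPS, and calycosin plus LPS against LPS gave 3 higher and 6 lower. Guanylate-binding protein genes, whose products coat bacteria, had the largest LPS responses: Gbp5 went from 0.0644 to 891 CPM, Gbp2 from 0.197 to 779.9 CPM and Gbp3 from 0.281 to 900.3 CPM. Gm12250, which encodes an immunity-related GTPase, went from 0.0539 to 13.2 CPM and stood at 12.3 CPM with calycosin plus LPS. With calycosin plus LPS the Gbp genes stood at 743, 617 and 470.0 CPM, and Gbp3 was the one of them that was lower (adjusted p = 0.00124). Gbp, Pydc, Irgm, Trim34 and Slfn genes have near-identical copies, so their levels are uncertain. The 3 that were higher, named after their values were seen, were Mavs (43.8, 21.3 and 40.2 CPM), Panx1 (40.2, 9.03 and 11.9 CPM) and Kcnk13 (16.6, 13.6 and 25.6 CPM). The 6 that were lower included, beside Gbp3 and named likewise, Cybb (89.5, 1131 and 593 CPM) and Clic1 (283, 682 and 385 CPM). Panx1 encodes a membrane channel that releases ATP, and like P2rx7 it was lower with LPS than with vehicle (4.46-fold, adjusted p = 4.64e-07).

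Inhibitors of NLRP3 numbered 13, of which 12 were tested, with 4 higher and 1 lower with LPS, and 1 higher and 2 lower with calycosin plus LPS against LPS. Pydc3, listed under the symbol Ifi208, went from 0.105 to 58.9 and 68.8 CPM, Pydc4 from 7.90 to 69.9 and 73.3 CPM, and Tnfaip3, a brake on NF-kappaB, from 7.21 to 214 and 112 CPM. Serpinb1a, which inhibits neutrophil serine proteases and caspase-1, was at 3.46, 4.05 and 0.984 CPM and fell with calycosin plus LPS against LPS (log2 -2.04, adjusted p = 0.00143). Of 12 ESCRT-III genes, whose products repair membranes holding gasdermin pores, all were tested, 7 rose and 2 fell with LPS, and 3 were lower for calycosin plus LPS against LPS. Chmp4b stood at 176, 594 and 340.3 CPM (adjusted p = 0.00349 for calycosin plus LPS against LPS), Chmp5 at 50.3, 101 and 73.3 CPM (adjusted p = 0.0219), Chmp2a at 38.2, 89.2 and 63.2 CPM (adjusted p = 0.0721) and Tsg101 at 72.9, 135 and 125 CPM (adjusted p = 0.819). These lists describe sets of genes and no claim that they differ from other genes of similar level is made.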

How the data were processed

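Per the labels' protocols, polyadenylated RNA was isolated with Trizol and poly-T beads from 9 cultures. Tools named in the submitters' processing notes are HISAT2 2.0, Trimmomatic 0.36 and StringTie 1.3.3b, and the build is mm10. The sources used here do not give the counter, annotation release or strand setting. The authors deposited raw whole-number counts for 51826 genes and TPM for 51799. The 10 members were matched by symbol and placed with GENCODE M21 (GRCm38). Members and lists were chosen with earlier results of these data known. Further genes were named by the rule of the largest called changes per list, exceptions being stated; some listed genes are not reported here. Counts were filtered with filterByExpr (14458 genes kept), scaled by TMM and fitted with edgeR 4.0.16 (R 4.3.3; quasi-likelihood F test, 2-sided, Benjamini-Hochberg over all genes, threshold 0.05) over all 9 libraries. The SE was derived from the test statistic. P-values measure the spread between these cultures. Alternatives used DESeq2 1.42.0, limma 3.58.1 on log2(TPM + pseudocount), other scalings, filters and left-out libraries. Exact tests used SciPy 1.17.1. No pair of libraries was a duplicate, and 0 per-sample columns lacked a sample.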

Additional observations from a re-analysis of the deposited data

How the results depend on the processing

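Of the 27 fold changes of the 9 tested genes, 14 kept their direction and side of the threshold under all alternatives run, 22 in all; over all 576 recomputed values, 509 did and 38 changed direction, and of those that kept their direction 23 lost and 6 gained a call, the cause in each case not tested. The alternatives with library totals, the libraries below a 10% mitochondrial share and the Casp4 to Casp1 ratio were chosen after seeing the data. The number lower with calycosin plus LPS against LPS, 4, was 2 with library totals, 1 with limma on log2(TPM + 1), on log2(TPM + 0.1) and without a filter, and 2 to 4 with a library left out (2 without calycosin plus LPS replicate 1). Fewer genes overall were called lower in these fits: 1871 of 14458 with TMM and edgeR, 710 with library totals, 308 and 310 of 14292 with limma and 361 of 25775 with limma and no filter. The number lower with LPS against vehicle, 1, was 1 to 2 with a library left out. The number lower with calycosin plus LPS against vehicle, 1, was 2 with library totals and 2 without vehicle replicate 3 and calycosin plus LPS replicate 2. The number higher with LPS against vehicle, 6, was 4 to 7. With the replicate block, 6 were higher and 1 lower with LPS, 4 lower with calycosin plus LPS against LPS, and 4 higher and 1 lower against vehicle, as without it. Deviations from the group means correlated at r = -0.1726 to 0.3636 between same-numbered libraries, and 4 of 9 libraries were closest to their own number. With so few libraries these values cannot decide whether replicate numbers pair the cultures.

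Signs turned with library totals for Nlrp1b (-0.20), Nlrc4 (-0.14) and Nek7 (-0.53) with LPS against vehicle, for Nlrc4 (0.18) and Casp4 (0.15) with calycosin plus LPS against LPS, and for Gsdmd (-0.26) with calycosin plus LPS against vehicle. With limma on log2(TPM + 1), with or without a filter, they were -0.29, -0.11 and -0.78 for Nlrp1b, Nlrc4 and Nek7 with LPS, 0.10, 0.13 and 0.20 for Nlrc4, Nek7 and Casp4 against LPS, and -0.0085 and -0.24 for Nlrc4 and Gsdmd against vehicle; with a pseudocount of 0.1 they were -0.30, -0.19 and -0.86, then 0.18, 0.16 and 0.20, then -0.0092 and -0.24. Relative to the median of all genes under the same scaling, library totals gave Gsdmd 1.05 and -0.87, Nlrp1b 0.56 and -0.56, and Casp4 -0.18 against LPS. Subtracting the median assumes, as TMM does, that the typical gene does not change. Nearness of these values to those with TMM is therefore built in and cannot decide between the scalings. Leaving out vehicle replicate 3 and calycosin plus LPS replicate 2 together turned Nlrp1b (0.054) and Gsdmd (-0.25) in calycosin plus LPS against vehicle, and in the libraries below 10% Nlrp1b was 0.096. With 1 library left out, Nlrp1b (-0.16 to 0.051) and Gsdmd (-0.10 to 0.27) in that comparison turned without vehicle replicate 3, Nlrc4 against LPS (-0.19 to 0.013) without calycosin plus LPS replicate 1, and Nek7 (-0.57 to 0.46 with LPS against vehicle, -0.65 to 0.39 against LPS) without LPS replicate 1. Depth limits Pycard.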
